A study of Homo sapiens with 4 samples.

Results

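Broad H3K14cr domains are stretches of the genome where histone H3 crotonylated at lysine 14 stays above background over several kilobases. They were defined here as runs of at least 4 consecutive 1 kb tiles, each with at least 3 times the chromosome mean in both H3K14cr libraries. The rule gave 3489 runs among 38532 H3K14cr runs of any length, where 22388 runs held 1 tile, 8714 held 2 tiles and 3941 held 3 tiles. The 3489 broad runs held 18968 tiles, 0.730% of the 2598309 tiles with a read in any library. Runs in 2 windows that are strongly raised in every library (161 runs) and runs with a tile among the top 0.1% in all 4 libraries (149 runs) had been left out by the rule. With 1 H3K14cr library alone setting the threshold, 5558 (without replicate 1) and 5587 (without replicate 2) runs passed. The runs were thus chosen by their H3K14cr level, which is given as a description with no test, and DPF2 entered the choice only through the very high tiles.

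The 4 libraries came from chromatin immunoprecipitation and sequencing of formaldehyde-fixed wild-type K562 cells, 2 with an antibody to DPF2 and 2 with an antibody to H3K14cr. K562 is an established human leukaemia line in which the fused and amplified BCR and ABL1 genes lie on material of chromosomes 22 and 9. Across the left-out windows, chr9:133000001-134200000 and chr22:16800001-24000000 (hg19), the mean level was 8.17 to 9.68 and 4.24 to 4.82 times the chromosome median in the 4 libraries. No treatment, time course or second cell line enters the comparisons, and no input library was analysed here, so copy number, ease of mapping and antibody enrichment cannot be told apart at any single locus.

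Crotonylation is an acyl modification of lysine, related to acetylation, that marks active promoters and enhancers. DPF2 is a subunit of BAF, a complex that moves nucleosomes with the energy of ATP. Its paired PHD fingers bind the tail of histone H3 and read acylated lysine 14, which raises the question of whether DPF2 lies along broad H3K14cr domains and how evenly.

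The DPF2 libraries held 7787444 and 13317496 reads, and the H3K14cr libraries 10880366 and 17369133, for replicates 1 and 2 in that order here and in every pair of values that follows. A covered tile had on average 3.0, 5.13, 4.19 and 6.68 reads in these libraries, while the median broad run held 66, 111, 121 and 191 reads. Run totals are therefore more precise than tile values, and the lowest run total was 13 reads, in DPF2 replicate 1. Over all covered tiles, a chi-square statistic of the read counts divided by its degrees of freedom (near 1 under sampling noise alone) came to 0.981 between the DPF2 libraries, 0.990 between the H3K14cr libraries and 1.08 to 1.13 across antibodies. Libraries of the same antibody thus differed by no more than the sampling noise and count as 1 sample of each antibody. Values are given for each library to show the counting error, with no SD, and no comparison between the antibodies has a replicate check.

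The broad runs were mostly short. The median width was 5 kb and the widest run spanned 35 kb. In all, 1626 runs (46.6%) were 4 kb wide, 788 (22.6%) were 5 kb, 189 (5.42%) were at least 10 kb and 9 were at least 20 kb. Together they held 4.38% and 4.34% of all reads in the H3K14cr libraries and 3.35% and 3.31% of those in the DPF2 libraries, on 0.730% of covered tiles. The median H3K14cr fold of a run, its mean tile level over the chromosome mean, was 5.91 in replicate 1 (lowest 3.29, highest 14) and 5.82 in replicate 2 (lowest 3.29, highest 12.8).

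DPF2 was raised over nearly all broad runs. The median run fold was 4.53 in DPF2 replicate 1 (lowest 1.63, highest 17.4) and 4.47 in replicate 2 (lowest 1.89, highest 17.3). Over all covered tiles the median tile fold was 0.657 and 0.747, and no broad run lay below the chromosome mean in either DPF2 library. In tile CPM (reads scaled to a library of 10000000, divided by 10) the median run stood at 1.73 and 1.71 for DPF2 and at 2.24 and 2.22 for H3K14cr. In both DPF2 libraries the run mean was at least 3-fold in 3192 runs (91.5%), where 2.14% of all windows of 4 consecutive covered tiles reached that level. It was at least 5-fold in 821 runs (23.5%), at least 10-fold in 17 (0.487%) and below 3-fold in both libraries in 75 (2.15%). Shares over windows of covered tiles were not computed for these last counts.

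In most runs DPF2 did not reach 3-fold in every tile of both libraries, as H3K14cr did by the rule. Counting noise can put a single tile under 3-fold, so this contrast with H3K14cr is not read as a result. Both DPF2 libraries were at least 3-fold in every tile of 546 runs (15.6%), against 0.211% of all windows of 4 consecutive covered tiles. The count depends on asking both libraries to pass, and was 1112 (31.9%) without DPF2 replicate 1 and 966 (27.7%) without DPF2 replicate 2. The matching figure for broad runs of exactly 4 tiles was 20.4%, and it was 4.76% for runs of 10 or more tiles, which have more tiles to pass. By contrast 3429 runs (98.3%) held at least 1 such tile, and 60 (1.72%) held none. At least 1 such tile was also held by 35.5%, 78.8% and 93.1% of H3K14cr runs of 1, 2 and 3 tiles. The share thus rose with width and was not particular to broad runs. Of the member tiles, 12472 (65.8%) were at least 3-fold for DPF2 in both libraries, against 2.18% of all covered tiles.

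A one-sided Poisson test of each tile against the chromosome mean, adjusted by Benjamini-Hochberg over all covered tiles, called 7999 member tiles (42.2%) enriched for DPF2 in both libraries at an adjusted p of at most 0.001 and at least 3-fold. The same call was made for 1.11% of all covered tiles. Without DPF2 replicate 1 the share of member tiles called was 69.3%, against 2.54% of covered tiles. At least 1 called tile lay in 3064 runs (87.8%), and every tile was called in 115 (3.30%). No share over windows of covered tiles was computed for these 2 counts. At a mean of 3.0 reads per covered tile in DPF2 replicate 1, a tile that was not called may still carry DPF2. When a tile was also set against the mean of its own 20 kb, where that was the higher reference, 394 member tiles (2.08%) were called, where 0.154% of covered tiles were. A broad run raises that local mean itself.

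The DPF2 level followed the H3K14cr level of a run. The Spearman correlation between the mean folds of the antibodies over 3489 runs was 0.745, a description across regions that share libraries and chromosome means. The correlation was 0.775 between the DPF2 libraries, 0.886 between the H3K14cr libraries and 0.659 to 0.703 between libraries of different antibodies. Scaled by library totals, the pooled DPF2 reads of a run divided by its pooled H3K14cr reads gave a median ratio of 0.758, with the middle of the runs (25th to 75th percentile) between 0.684 and 0.842. The 95% interval of the ratio, which covers counting error only, lay below 1 in 2470 runs (70.8%), included 1 in 966 (27.7%) and lay above 1 in 53 (1.52%). Runs chosen for high H3K14cr tend to a ratio below 1 by that choice, so its place relative to 1 is not read as a result. Over runs the chi-square over its degrees of freedom came to 1.01 between the DPF2 libraries and 2.12 to 2.88 across antibodies, so the ratio varied among runs by more than sampling noise.

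**Figure D1:**
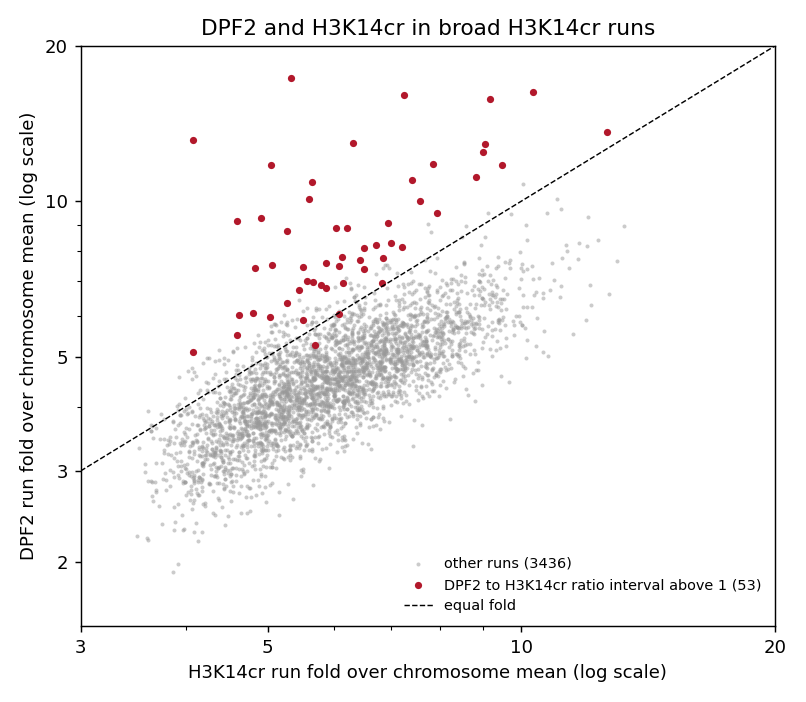
Each point is 1 of 3489 broad runs, with the H3K14cr run fold over the chromosome mean on the x axis and the DPF2 run fold on the y axis, both on log scales and each the mean of both libraries. Most runs lie below the dashed line of equal fold, and the 53 red runs, whose ratio interval by library totals lies above 1, lie almost all above it.

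Among broad runs the DPF2 level per kilobase hardly varied with width. The median DPF2 run fold was 4.50 for runs of 4 tiles, 4.49 for 5 tiles, 4.48 for 6 to 7 tiles, 4.60 for 8 to 9 tiles and 4.54 for 10 or more tiles. The Spearman correlation of width with DPF2 fold was 0.0231, and it was 0.0662 between width and H3K14cr fold. Narrower H3K14cr runs held less DPF2, with medians of 3.05, 4.04 and 4.4 for 1, 2 and 3 tiles. H3K14cr was lower there as well, at 3.86, 4.86 and 5.60 against 5.87 over all broad runs. The ratio of DPF2 to H3K14cr differed little with width, with medians of 0.775, 0.791 and 0.774 for 1, 2 and 3 tiles and 0.743 for runs of 10 or more tiles. The share of tiles called for DPF2 was 16.1%, 37.1% and 41.4% in runs of 1, 2 and 3 tiles and 42.2% in broad runs.

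At equal H3K14cr levels, a tile in a broad run and a tile in a run of 1 to 3 tiles held much the same DPF2. Among tiles with an H3K14cr fold of 3 to 4, the median DPF2 fold was 2.93 in 3533 tiles of broad runs and 2.81 in 20650 tiles of narrower ones. Between 5 and 6 the medians were 4.17 and 4.26, between 8 and 10 they were 6.19 and 6.47, and between 10 and 15 they were 7.41 and 7.63. The share called for DPF2 was likewise near equal, at 9.62% and 7.77% in the lowest class and 89.8% and 91.6% between 10 and 15. Over the 7 classes the broad tiles were slightly higher in the lower 2 and slightly lower in the other 5. These differences were not tested, since tiles of a run are not independent and each antibody counts as 1 sample.

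Both antibodies fell off together at the edges. The mean DPF2 tile fold was 3.96 and 3.91 in the outermost tile of a run and 5.15 and 5.05 in the next tile inward. In the tile just outside it was 2.24 and 2.22. The corresponding H3K14cr values were 5.09 and 4.98, 6.72 and 6.64, and 2.34 and 2.42, and here the rule itself sets the step. DPF2 was not bound by the threshold and showed a step at the same place. Tiles 5 kb outside had a mean DPF2 fold of 2.42 in both libraries and a mean H3K14cr fold of 2.80 in both. These means were above those of the tile just outside, which the rule keeps below 3-fold in at least 1 H3K14cr library. Median folds for DPF2 were 2.14 and 2.17 just outside and 2.04 and 2.06 at 5 kb. For H3K14cr they were 2.34 and 2.40 just outside and 2.31 and 2.33 at 5 kb, so the outside level showed no steady decline.

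**Figure D2:**
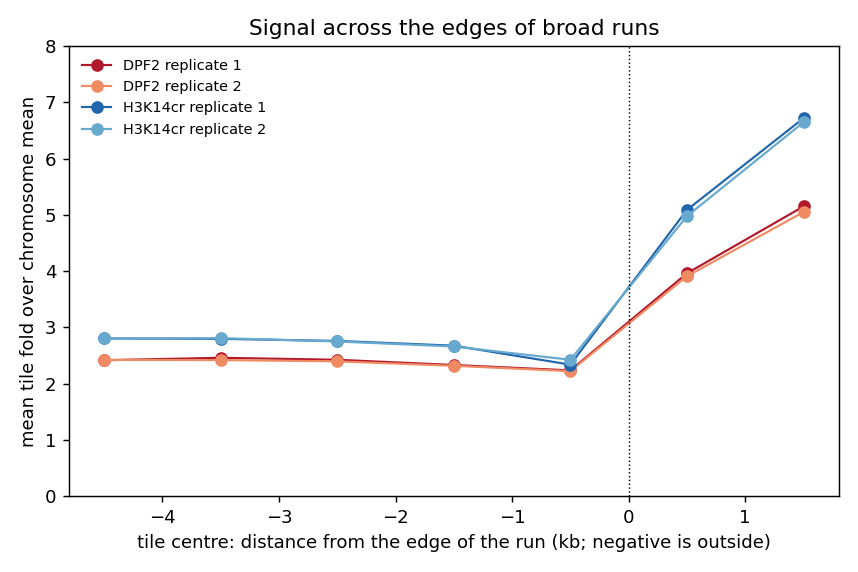
Mean tile fold over the chromosome mean (y axis) by distance of the tile centre from the edge of a broad run (x axis, kb, negative outside), 1 line per library, over both edges of all runs. DPF2 is 2.24 and 2.22 in the tile just outside, 3.96 and 3.91 in the outermost tile inside and 5.15 and 5.05 one tile further in.

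Broad runs lay in neighbourhoods that were themselves raised. Flanks were tiles 6 to 25 kb away that belonged to no kept H3K14cr run of any width. Tiles of runs left out by the rule were not removed from them. The median flank fold was 1.81 and 1.79 for DPF2 and 1.91 and 1.92 for H3K14cr, over 3486 runs with such tiles. DPF2 in the run was a median of 2.53 and 2.5 times the flank, and H3K14cr 3.18 and 3.13 times. DPF2 was at least 2 times the flank in both libraries in 2381 runs (68.3%), against 3.42% of windows of 4 consecutive covered tiles, and at or below the flank in both in 13. The mean level over the surrounding 1 Mb had a median at runs of 1.77 and 1.75 for DPF2 and of 1.93 in both H3K14cr libraries. Over all covered tiles those medians were 0.923, 0.927, 0.892 and 0.894.

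In all, 2734 runs (78.4%) lay where the 1 Mb H3K14cr level was at least 1.5, as did 17.5% of covered tiles. The DPF2 fold over the chromosome mean varied little with that level, with a median of 4.26 in the 102 runs where it was under 1 and of 4.72 in the 569 runs where it was at least 2.5. Relative to the DPF2 level of the same 1 Mb, those medians were 4.97 and 1.87. When H3K14cr was set against the surrounding 1 Mb in place of the chromosome mean, 715 runs passed the rule. Of these 558 (78.0%) shared a tile with a broad run, while 553 of the 3489 broad runs (15.8%) shared a tile with one of them. Which loci count as broad domains thus depended strongly on the reference.

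By its highest tile, DPF2 was about as evenly spread along a run as H3K14cr. The rule holds every H3K14cr tile at 3-fold or more, which limits its unevenness, and sets no such floor for DPF2. The highest tile stood at a median of 1.52 and 1.48 times the run mean in the DPF2 libraries and at 1.44 and 1.43 times in the H3K14cr libraries. Counting noise raises this measure in shallower libraries. With reads thinned to the same number per run in every library (median 66), it was 1.52 and 1.52 for DPF2 and 1.49 and 1.51 for H3K14cr. After thinning, 613 runs (17.6%) were more concentrated in both DPF2 libraries than in either H3K14cr library, and 536 (15.4%) were less.

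The highest tile was less often the same tile for DPF2 and H3K14cr than for 2 libraries of the same antibody. In thinned reads it was the same in 54.6% of runs between the DPF2 libraries and in 52.4% between the H3K14cr libraries, with runs that had tied highest tiles left out. Between antibodies it was the same in 43.6% to 46.6%. An even choice among a run's tiles would give 20.4%. In runs of at least 10 kb the shares were 43.2% and 37.6% within antibodies and 27.6% to 31.5% between them, against 8.2% for an even choice. All 4 pairs between antibodies lay below both pairs within an antibody, and no test was made of this order. The differences were smaller by other measures. In thinned reads of all runs, the same or the next tile was highest in 82.6% and 82.2% within antibodies and 79.2% to 80.9% between them. Tile by tile in runs of at least 10 kb, without thinning, median Spearman correlations were 0.624 within DPF2 and 0.728 within H3K14cr. Between antibodies they were 0.541 to 0.616.

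At 100 bp resolution DPF2 formed a sharper summit than H3K14cr around its own maximum. Around the highest 100 bp bin of DPF2 replicate 1, the mean fold in DPF2 replicate 2 was 6.96 within 100 bp and 5.22 at 300 to 700 bp, a ratio of 1.33. In the H3K14cr libraries the same positions gave 8.18 and 8.12 within 100 bp against 6.97 and 6.92 at 300 to 700 bp, ratios of 1.17 in both. Around the highest bin of H3K14cr replicate 1 the order turned, with a ratio of 1.29 in H3K14cr replicate 2 and of 1.2 and 1.21 in the DPF2 libraries. With the replicate 2 libraries placing the summits, the ratios were 1.39 (DPF2 replicate 1) against 1.18 and 1.17, and 1.31 (H3K14cr replicate 1) against 1.23 and 1.19. Each antibody thus peaked more sharply at its own summits than the other did there. All 4 libraries were nonetheless highest within the summit bin whichever antibody placed it. A position chosen in 1 library was never measured in that library, though whether libraries of the same antibody came from 1 preparation was not tested.

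**Figure D3:**
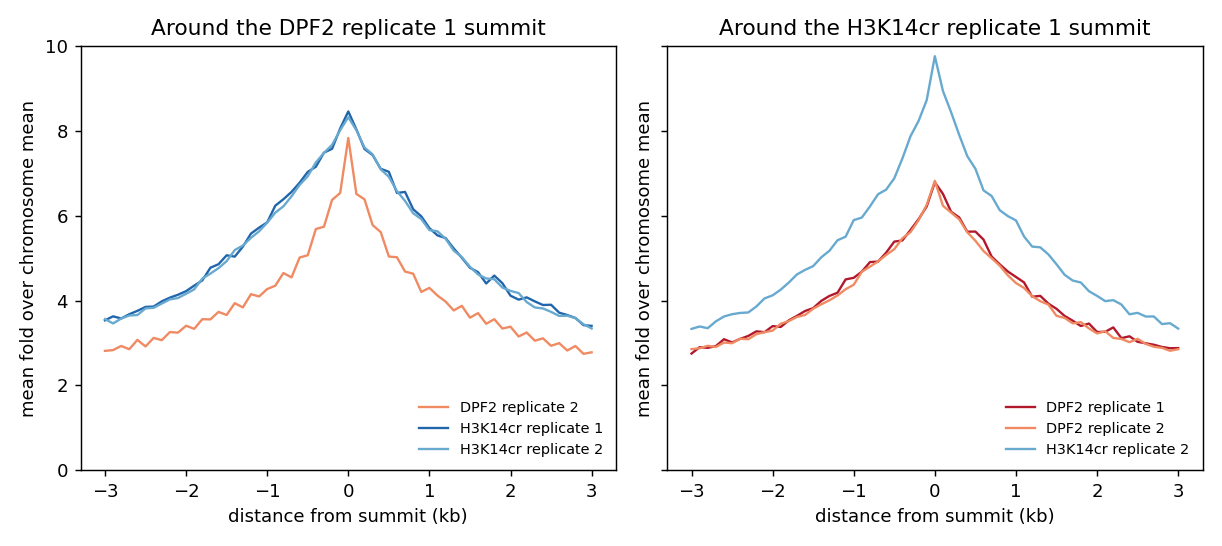
Mean fold over the chromosome mean (y axis) by distance (x axis, kb) from the highest 100 bp bin of DPF2 replicate 1 (left) or H3K14cr replicate 1 (right) in each of 3489 broad runs, 1 line per library not used to place the summit. Every line is highest at the summit, and the line of the antibody that placed it falls off most steeply.

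Applied to DPF2, the same rule gave 1648 broad DPF2 runs, with a median width of 4 kb and a widest run of 28 kb. Of the broad H3K14cr runs 1291 (37.0%) shared a tile with a broad DPF2 run, against 0.557% of windows of 4 consecutive covered tiles. Of the broad DPF2 runs 1314 (79.7%) shared a tile with a broad H3K14cr run, against 1.24% of such windows. The share of H3K14cr runs was 23.6% for those of 4 kb (383 of 1626) and 75.1% for those of at least 10 kb (142 of 189), which offer more tiles to share. Of the broad DPF2 runs, 5 (0.303%) had no tile at 3-fold in both H3K14cr libraries, as did 92.5% of windows of 4 consecutive covered tiles.

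In the 5 widest runs most tiles were at least 3-fold for DPF2 in both libraries, with a run mean below that of H3K14cr in each. The widest, chr3:13039001-13074000 (35 kb), had a DPF2 fold of 6.04 and 5.69 and an H3K14cr fold of 7.73 and 7.59. In it 26 of 35 tiles were at least 3-fold for DPF2 in both libraries and 20 were called. The next, chrX:39936001-39970000 (34 kb), had a DPF2 fold of 6.55 and 6.64, an H3K14cr fold of 9.81 and 10.3, and 31 tiles at 3-fold for DPF2. Of its 34 tiles 15 were called. In chr8:130684001-130712000 (28 kb) DPF2 was 7.32 and 7.56, H3K14cr 11.5 and 11.3, all 28 tiles were at 3-fold for DPF2 and 21 were called. It is the run among these 5 in which DPF2 met the threshold throughout. The runs chr3:12993001-13018000 (25 kb) and chr5:10300001-10323000 (23 kb) had DPF2 folds of 5.25 and 5.85 and of 5.27 and 4.79, with 21 and 18 tiles at 3-fold. Called tiles numbered 13 and 12 in these runs. Against the surrounding 1 Mb in place of the chromosome mean, the DPF2 folds of the 5 widest runs were 1.87 to 3.22. The 2 runs on chromosome 3 lie in a stretch whose 1 Mb DPF2 level was near 3 (3.03 in replicate 1 at the widest run).

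The highest DPF2 folds came from short runs in which 1 or 2 tiles held most of the DPF2. In chr17:61918001-61922000 the DPF2 run fold was 17.4 and 17.3, and that of H3K14cr was 5.43 and 5.23. Its tile 3 stood at 48.8 and 40.8 for DPF2 and at 3.03 and 3.44 for H3K14cr, the lowest H3K14cr tile of the run. In chr12:53297001-53302000 tile 1 stood at 63.7 and 59.3 for DPF2 and at 6.65 and 9.0 for H3K14cr, and its other tiles were between 2.80 and 6.53 for DPF2. In chr5:176236001-176240000 tile 2 reached 39.2 and 40 for DPF2 against 4.53 and 5.21 for H3K14cr.

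The ratio of DPF2 to H3K14cr reads was the highest of all runs in chr5:176236001-176240000, at 3.29 (95% interval 2.76 to 3.94), followed by 3.04 (2.68 to 3.45) in chr17:61918001-61922000 and 2.40 (2.03 to 2.85) in chr5:115909001-115913000. In chr4:26319001-26324000, with a DPF2 run fold of 15.9 and 15.7, tiles 3 and 4 were high, tile 4 at 38.5 and 37.2. A different form was seen in chr13:92009001-92014000, where DPF2 was 16.1 and 16.5 and H3K14cr 9.67 and 11. There tiles 1 to 3 were all above 18-fold for DPF2. The flanks, from which left-out runs were not removed, were also high, at 7.55 and 7.48 for DPF2 and 11.1 and 10.2 for H3K14cr. So was the level over the surrounding 1 Mb, at 3.93 and 3.95 for DPF2 and 3.41 and 3.43 for H3K14cr. Against that 1 Mb the DPF2 fold of this run was 4.14, where that of chr17:61918001-61922000 was 12.4.

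**Figure D4:**
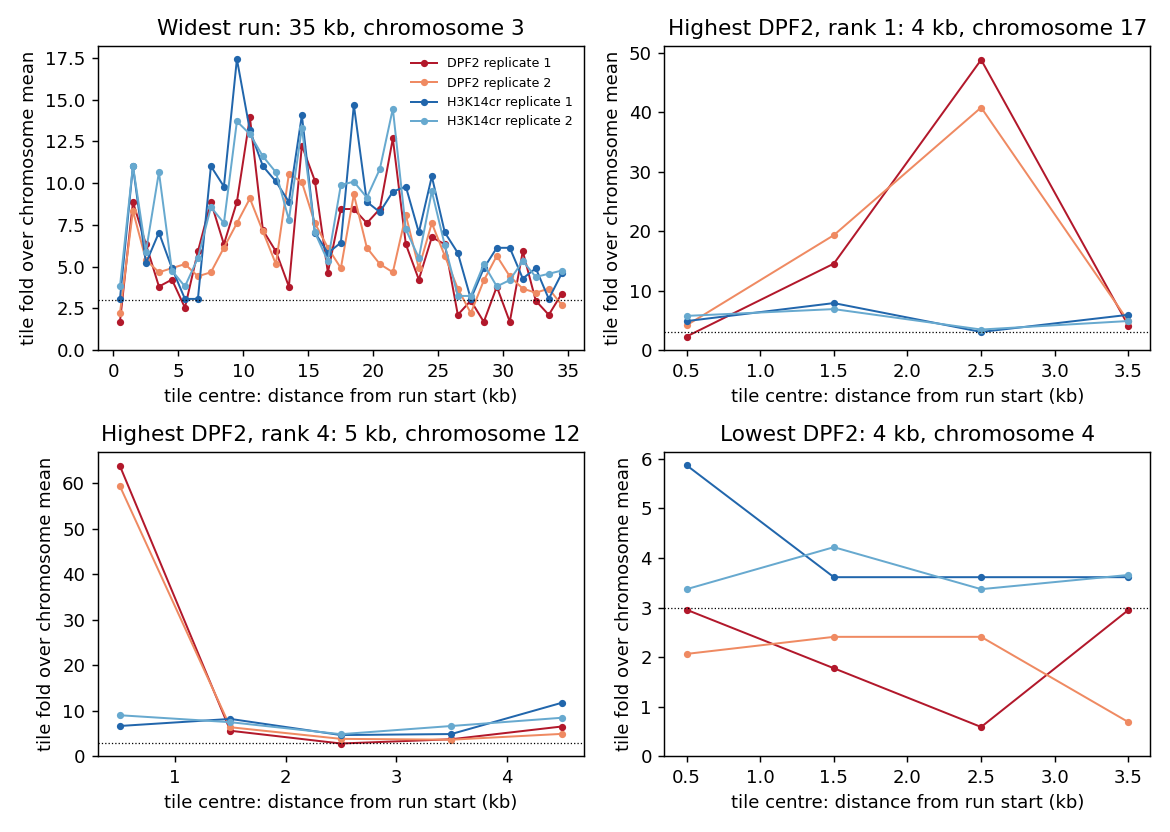
Tile fold over the chromosome mean (y axis, a different scale in each panel) by distance from the run start (x axis, kb) in 4 broad runs, 1 line per library, with the threshold of 3 dotted. In the 35 kb run on chromosome 3 the 4 libraries largely rise and fall together, on chromosomes 17 and 12 DPF2 reaches 48.8 and 63.7 in 1 tile where H3K14cr stays below 10, and in the run on chromosome 4 both DPF2 libraries stay below 3.

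Across the 53 runs whose ratio interval lay above 1, DPF2 was in many but not all concentrated in a tile. Their highest tile was a median of 1.91 and 1.89 times the run mean for DPF2, against 1.52 and 1.48 over all broad runs, and 1.42 and 1.35 times for H3K14cr. The lower quartile for DPF2, 1.45 and 1.43, was below the median of all broad runs. Of the 53 runs, 44 were 4 or 5 kb wide. Their median DPF2 fold was 8.63 and 7.98, while their H3K14cr fold, at 5.92 and 5.98, was close to that of all broad runs. A high ratio and a high DPF2 tile are not independent measures, so these values describe the set and test nothing. The intervals were not adjusted for the number of runs. A matching share over windows of covered tiles was not computed, so the size of the set is not read as a result. Tiles called for DPF2 with both DPF2 folds at least 2 times both H3K14cr folds numbered 23 among the member tiles (0.121%), against 0.00997% of all covered tiles and 0.139% of tiles in H3K14cr runs of 1 to 3 tiles. Of the 53 runs 18 held such a tile, and of all broad runs 21 (0.602%) did.

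The lowest DPF2 was found in 4 kb runs close to the H3K14cr threshold. In chr14:101181001-101185000 DPF2 was 1.63 and 2.19 against 3.87 and 3.84 for H3K14cr, and its DPF2 flank was 2.55 and 2.06. In chr4:151904001-151908000 DPF2 was 2.07 and 1.89 against 4.18 and 3.66, from 14 and 22 reads. The other 3 of the lowest 5, chr13:27528001-27532000, chr5:173145001-173149000 and chr2:43186001-43190000, lay between 2.16 and 2.34. In chr5:173145001-173149000 the flank, at 2.84 and 2.40 for DPF2, was above the run. Low DPF2 relative to H3K14cr was a different set. The lowest ratio was 0.448 (95% interval 0.374 to 0.535) in chr16:576001-580000, where DPF2 was 3.24 and 3.47 and H3K14cr 7.95 and 6.93. The next lowest were chr9:96337001-96341000 and chr7:149155001-149159000, with DPF2 of 3.82 and 3.75 and of 4.60 and 3.62.

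Just inside and just outside the threshold, the DPF2 folds of the nearest stretches lay in overlapping ranges. Just inside, chr19:47287001-47292000 had a lowest H3K14cr tile of 3.0003 and a DPF2 fold of 4.62 and 4.76, and chr15:73074001-73078000 had a DPF2 fold of 3.72 and 4.26. Just outside, chr19:3982001-3986000 and chr19:46365001-46369000 had a lowest H3K14cr tile of 2.997, and DPF2 was 4.27 and 3.76 in one and 3.64 and 3.71 in the other. In all, 97 stretches missed the rule by a single tile lying just under 3.

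A limma test of DPF2 against H3K14cr on log2(CPM + 0.5) was fitted to the 255612 tiles averaging 10 or more reads, of which 18487 were among the 18968 member tiles. Calls were made at a p of 0.05 or less after Benjamini-Hochberg adjustment. It called 55 member tiles (0.298%) higher in DPF2, where 0.202% of all tested tiles were, and 1228 (6.64%) higher in H3K14cr, where 1.19% were. With size factors from median ratios the counts were 71 and 375. Without H3K14cr replicate 1 they were 25 and 13, without H3K14cr replicate 2 they were 22 and 19, and without DPF2 replicate 2 they were 94 and 2173, so neither the counts nor their balance was stable. The median log2 difference was -0.11 over all tested tiles and -0.32 over member tiles by library totals, and 0.00 and -0.20 by median ratios. The H3K14cr level chose the members, so nothing is read from these counts, and with 1 sample of each antibody the test compares these libraries only.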

How the data were processed

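The labels' titles gave each library its antibody and replicate number; they do not say whether numbers mark separate cultures. Per the labels' protocols, fixed chromatin was sonicated, immunoprecipitated and made into libraries. Per the submitters' processing notes, Bowtie2 was used and the builds hg19 and mm9 are named; coordinates run past the end of chromosome 1 in GRCh38 (to 249240325) and were read as hg19. The sources used here do not give duplicate removal or mapping filters. The deposited signal is reads per 100 bp bin scaled by the authors to 10000000 reads, per the file values. Dividing by the value of 1 read gave whole reads (tolerance 0.005) for all but 2, 3, 0 and 0 bins (100% whole in each library, after rounding).

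Bins were summed in 1 kb tiles by midpoint. Fold is tile level over the mean of the chromosome's covered tiles (a read in any library). Intervals are exact (95%), cover counting error only, and reads are not independent molecules. Thinning drew reads at random with a fixed seed, and tied summit bins were broken at random. Members, lists and tests were chosen with earlier results of these data known. Named runs are the 5 widest, the 5 highest and 5 lowest for DPF2, the 3 highest and 3 lowest ratios, and the 2 nearest each side of the threshold. Tools were Python 3.11.15, numpy 2.4.6, scipy 1.17.1, limma 3.58.1 and edgeR 4.0.16. Genes and sequences at the runs were not analysed here.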

Additional observations from a re-analysis of the deposited data

How the results depend on the processing

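The number of broad runs changed with the processing: against 3489 it was 1331 at a threshold of 4, 1075 at 6 or more tiles, 5606 with the H3K14cr libraries summed, 10616 against the chromosome median, 715 against the surrounding 1 Mb and, in an alternative chosen after seeing the data, 5621 against the mean of all tiles with assembly gaps included. Without 1 H3K14cr library it was 5558 to 5587. The median DPF2 fold (4.51) was 5.25, 4.07, 4.71, 4.09 and 4.73 at threshold 4, summed, chromosome median, 1 Mb and gaps included, 4.56 with very high tiles kept, and 3.99 to 4.53 with 1 library left out. Runs with DPF2 at 3-fold in every tile (546, 15.6%) numbered 89 (8.28%) at 6 or more tiles. Against the chromosome median, 1 Mb and all tiles they numbered 1782 (16.8%), 115 (16.1%) and 967 (17.2%), so counts moved with little change in share. At threshold 4 they numbered 520 (39.1%) and with the H3K14cr libraries summed 445 (7.94%), so there the share moved. With 1 library left out they numbered 430 (7.70%) to 1112 (31.9%), with 1112 without DPF2 replicate 1 and 966 without DPF2 replicate 2. Enriched member tiles (42.2%) were 2.08% against the local 20 kb, 65.8% by fold alone, and 32.8% to 69.3% with 1 library left out. A grid shifted by 500 bp, and leaving out chromosomes 22 and Y (added after seeing the data), moved none of these 4 results beyond 1.5 times or the spread between libraries.

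Thinned, the highest tile over the run mean was 1.52, 1.52, 1.49 and 1.51 in DPF2 replicates 1 and 2 and H3K14cr replicates 1 and 2. In limma, member tiles higher in H3K14cr (1228) numbered 375 with median-ratio size factors. With 1 library left out they numbered 13 (without H3K14cr replicate 1) and 19 (without H3K14cr replicate 2) to 2173 (without DPF2 replicate 2), and those higher in DPF2 (55) 22 to 94. Without H3K14cr replicate 1 or 2 the calls higher in DPF2 (25 and 22) outnumbered those higher in H3K14cr; the lone library is assumed to vary like the other antibody's. On the recovered reads edgeR called 60 member tiles higher in DPF2 and 1388 higher in H3K14cr. With the replicate block the counts were 63 and 1450, and the deviations of same-numbered libraries correlated at 0.0015. That correlation cannot decide whether the numbers pair the libraries, since the deviations hold little beyond counting error. Over covered tiles the chi-square over its degrees of freedom was 0.981 within DPF2 and 0.990 within H3K14cr. Of the 21 named runs, 20 had a DPF2 fold above 1 against the surrounding 1 Mb (0.896 to 12.4); the exception was chr14:101181001-101185000. Depth limits single tiles, at 3.0 reads per covered tile in DPF2 replicate 1. The cause of these shifts was not tested.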

Other observations

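Of the broad runs, 1114 (31.9%) lay within 10 kb of another, in 452 groups, 48 of them with at least 4 runs. A single tile under the threshold can split a run into neighbours. No matching share over covered tiles was computed, so the closeness is not read as a result. The 11 runs of chr3:13516001-13627000 covered 77 kb, with a mean DPF2 fold of 3.83 and H3K14cr fold of 5.16. Another 11 runs, in chr8:128908001-129007000, covered 74 kb at 3.74 and 5.28. The 10 runs of chr3:12983001-13136000 covered 121 kb at 4.77 and 6.12, and the 6 runs of chrX:39925001-40039000 covered 85 kb at 5.55 and 8.04. In chr13:92009001-92069000 6 runs covered 35 kb, and there DPF2 (9.04) was above H3K14cr (8.37), at a DPF2 level over the surrounding 1 Mb of 3.87.

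Chromosome Y had the most runs per covered Mb, 6.31, from 5 runs on 0.793 covered Mb, with a median ratio of DPF2 to H3K14cr of 1.31. With so few runs on so little covered sequence, neither value is read as a result. Chromosome 3 held 348 runs, 1.93 per covered Mb, and chromosome 11 held 1.84 per covered Mb. Chromosome X held 1.01, and chromosome 22 held 2 runs, 0.0614 per covered Mb, with a left-out window at 4.24 to 4.82 times the chromosome median. Runs in that window were left out while its tiles stayed in the chromosome mean, so the density on chromosome 22 is not read as a result. Leaving aside chromosomes 22 and Y, the median DPF2 fold of a chromosome's runs was 4.06 on chromosome 16 to 5.23 on chromosome 13. The ratio of DPF2 to H3K14cr was 0.703 on chromosome 17 to 0.845 on chromosome 13.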
